A study of Mus musculus and Homo sapiens with 12 samples.

Results

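The receptors through which blood progenitors sense growth factors were examined in cells with and without the RNA helicase DDX21. The set holds 9 genes, chosen by name as receptors or receptor subunits for hematopoietic cytokines (KIT, FLT3, EPOR, CSF3R, CSF2RA, IL3RA, CSF2RB, IL6ST and IL1RL1). Symbols were matched without regard to case. All 9 were found among the 55487 genes counted in the mouse. Of the 78932 genes counted in human cells, only the 18674 in the normalized table could carry a symbol and 14931 did, and 6 of the 9 receptors were found among these. FLT3, CSF2RA and IL3RA were not matched to the counted identifiers and were not analysed here.

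Messenger RNA was counted in 12 libraries, 3 in each of 4 groups. The mouse cells were live, lineage-negative, Kit-positive (LK) progenitors from fetal liver at stage E13.5 of gestation, of genotype Ddx21f/f (WT, both alleles flanked by loxP sites and no Cre) or Vav-Cre; Ddx21f/f (cKO, the same alleles with Cre recombinase driven by the blood-cell promoter Vav). Effects of Cre itself and of the deletion cannot be told apart, since WT carried no Cre. The human cells were blood stem cell-like cells (CD34+ CD45+ CD43+) differentiated from H1, a single human embryonic stem cell line. Lentivirus marked by mCherry gave them an shRNA that was either a control (shNC) or directed at DDX21 (shDDX21), and they were collected 2 days after transduction. Nothing in the labels ties the 3 libraries of a group to separate litters or cultures, so p-values measure the spread between these libraries, which may be technical.

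Cytokine receptors set which progenitors survive, divide and mature. KIT and FLT3 are receptor tyrosine kinases, for stem cell factor and FLT3 ligand. EPOR and CSF3R are single-chain receptors for erythropoietin and granulocyte colony-stimulating factor, and signal through JAK kinases and STAT factors. CSF2RA and IL3RA bind GM-CSF and interleukin-3 and pass the signal on through the shared chain CSF2RB. IL6ST (gp130) is the shared chain for the interleukin-6 family, including LIF. IL1RL1 (ST2) is the receptor for interleukin-33 and is known from mast cells. The fetal liver is the main site of red cell production in the embryo at this stage.

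Promoters of Epor, Csf3r and Kit are shown because these are the mouse members that differed between the genotypes and have an entry in the RefSeq promoter table (build GRCm38.p6, 250 bases before to 50 after the transcription start). The table held 8 of the 9 members, and Csf2rb had no entry. Each is written 5′ to 3′ on the strand of the gene, at chr9:21963527-21963826 (minus strand) for Epor, chr4:126024409-126024708 (plus strand) for Csf3r and chr5:75574737-75575036 (plus strand) for the first of 2 Kit entries. Capitals mark matches to the motifs searched.
Epor: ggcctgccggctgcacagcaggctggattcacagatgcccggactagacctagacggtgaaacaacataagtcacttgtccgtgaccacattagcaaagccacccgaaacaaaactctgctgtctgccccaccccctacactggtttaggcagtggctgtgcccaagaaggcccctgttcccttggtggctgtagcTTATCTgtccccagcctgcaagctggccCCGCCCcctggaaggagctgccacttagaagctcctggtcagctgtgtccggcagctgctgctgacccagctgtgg
Csf3r: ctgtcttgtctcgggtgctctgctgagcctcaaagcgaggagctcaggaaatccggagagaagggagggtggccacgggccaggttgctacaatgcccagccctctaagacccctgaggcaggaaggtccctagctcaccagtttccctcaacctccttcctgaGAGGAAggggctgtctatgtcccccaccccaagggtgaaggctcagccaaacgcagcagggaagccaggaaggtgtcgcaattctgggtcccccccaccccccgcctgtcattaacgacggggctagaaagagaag
Kit: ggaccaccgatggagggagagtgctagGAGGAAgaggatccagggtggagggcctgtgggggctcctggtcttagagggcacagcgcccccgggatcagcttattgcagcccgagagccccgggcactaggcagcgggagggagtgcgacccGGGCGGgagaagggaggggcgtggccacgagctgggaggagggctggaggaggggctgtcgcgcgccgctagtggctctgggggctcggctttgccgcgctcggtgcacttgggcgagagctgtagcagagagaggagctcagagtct
Both strands were searched for AGATAA (known to be bound by GATA factors), GAGGAA (PU.1 and other ETS factors), TTGCNNAA (C/EBP factors), TTCNNNGAA (STAT factors), CCACACCC (KLF factors) and GGGCGG (SP and KLF factors). No matches overlapped each other in these 3 windows. The Epor window held 1 AGATAA, read on the opposite strand as TTATCT, that began 54 bases before the start, and 1 GGGCGG on the opposite strand at 26 bases before it. The Csf3r window held 1 GAGGAA at 86 bases before the start. The Kit window held 1 GAGGAA at 223 and 1 GGGCGG at 98 bases before the start. Among 32851 promoters of the same length, 11.2% held AGATAA, 28.3% GAGGAA and 35.7% GGGCGG, and each match is a description that is not shown to be a site. TTGCNNAA, TTCNNNGAA and CCACACCC, held by 10.8%, 8.30% and 3.56% of promoters, were not among the letters of these 3 windows.

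Libraries held 21116079 to 23898130 counts in the mouse and 15289510 to 19798608 in the human experiment. DDX21 itself was lower in every perturbed library. Given as CPM, counts scaled to a common library size after TMM normalisation, mouse Ddx21 went from 1420 ± 12.5 to 280 ± 3.62, and human DDX21 from 470 ± 6.05 to 68.3 ± 1.14 (SD, n = 3 per group). Genes of the sorted cells were present (Kit in the mouse, CD34 and PTPRC in human cells), and the 12 fetal liver macrophage markers summed to at most 3.65 CPM in any mouse library. The 13 hepatoblast markers, which include Alb and Afp, summed to 14.8 to 16.7 CPM in WT and 50.7 to 54.8 CPM in cKO. Of these, 7 could be tested and all 7 were called higher, beside 20.7% of all genes (adjusted p under 0.05, edgeR's quasi-likelihood test). Their median log2 fold change was 4.07. A gene near 0 in WT can pass the filter on low counts through its cKO libraries alone, and its higher call is then largely fixed. The 7 of 7 is therefore a description. The part of hepatoblasts in the receptor values was not tested. The spread between replicates differed, with a biological coefficient of variation of 10.5% in the mouse and 2.23% in the human experiment.

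The mouse libraries deviated from their group means with the share of G and C bases in the transcript, and this bears on the receptors that are rich in them. Across 9680 genes above 5 CPM, the Spearman correlation of a library's deviation with GC content was 0.541 and 0.438 in WT replicates 1 and 2 and -0.614 in WT replicate 3. In cKO replicates 1, 2 and 3 it was 0.684, -0.690 and 0.047. In the richest of 10 equal bins of these genes by GC content, the median deviation ran from -0.31 (cKO replicate 2) to 0.32 (cKO replicate 1) on the log2 scale. Il3ra (60.7% G and C), Epor (59.6%) and Csf2ra (57.8%) exceeded 98.3%, 96.6% and 92.7% of these genes. Csf3r (54.2%), Csf2rb (53.9%), Flt3 (51.2%), Kit (48.5%), Il6st (47.4%) and Il1rl1 (43.4%) lay closer to the middle. For that reason mouse changes are also given with a GC offset, a correction of each library for its smoothed deviation with GC content that was added after the data were seen. This offset also removes any part of the genotype difference that follows GC content (median log2 fold change -0.35 in the richest bin and 0.02 in the poorest). The offset takes out spread between replicates before the test as well, so p-values with it can be too small.

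**Figure D1:**
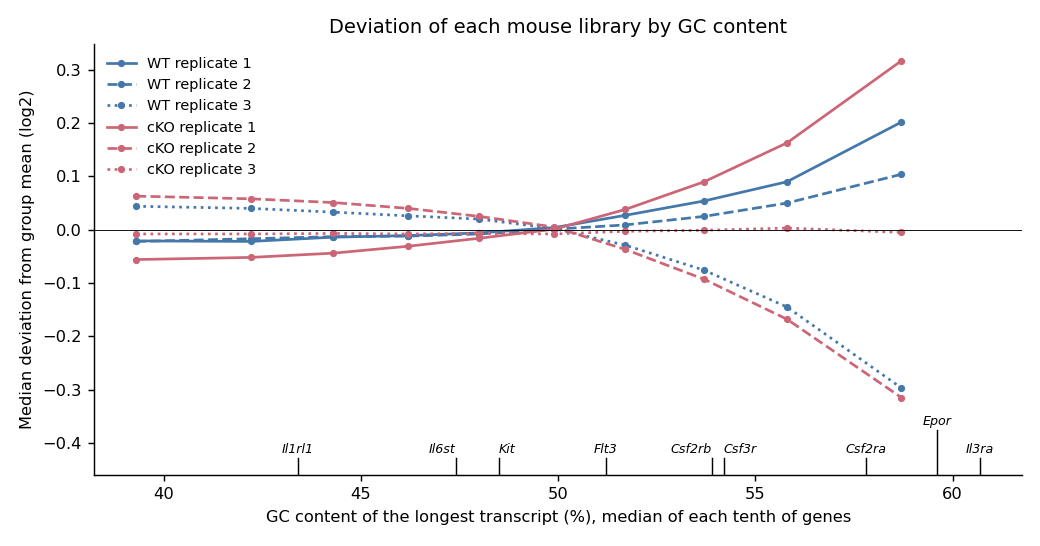
Median deviation of each mouse library from its group mean (log2 scale) in 10 equal bins of genes by transcript GC content (%), with ticks at the GC content of the 9 receptor genes. WT replicate 3 and cKO replicate 2 fall to -0.30 and -0.31 in the richest bin, next to Csf2ra, Epor and Il3ra, while WT replicates 1 and 2 and cKO replicate 1 rise to 0.20, 0.10 and 0.32.

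In cKO progenitors, the receptors did not all move one way. Csf3r rose and Csf2rb rose slightly, Epor fell and Kit fell slightly, and the other 5 did not pass the test. All 9 passed the filter on low counts. Thus 4 of 9 receptors were called at an adjusted p under 0.05 by edgeR's quasi-likelihood test, with p-values adjusted by Benjamini-Hochberg, beside 36.5% of 14918 genes tested. The 2 higher members stand beside 20.7% of all genes higher, and the 2 lower beside 15.8% lower. The 3 libraries of each genotype did not overlap for 4 of 9 members (Kit, Csf3r, Csf2rb and Il1rl1), beside 49.0% of all genes. The median log2 fold change of the 9 was -0.02, and that of all genes 0.00. These shares are near the background. In bulk libraries, fewer cells of a type and less RNA per cell cannot be told apart.

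Kit (ENSMUSG00000005672; GRCm38 chromosome 5, 75574916 to 75656722, plus strand), the receptor whose protein was used to sort these cells, changed little. It stood at 359, 360 and 368 CPM in WT replicates 1 to 3, and at 312, 322 and 317 CPM in the cKO replicates. Every cKO library was below every WT library, and the gap exceeded the spread within either genotype. The log2 fold change was -0.19 (SE 0.0323, 95% interval -0.27 to -0.12, adjusted p 0.00334, edgeR's quasi-likelihood test), or 87.5% of WT. With libraries scaled by total counts in place of TMM factors, it was -0.13 with an adjusted p of 0.062. That scaling also moved the share of all calls that were higher from 56.6% to 68.9%. A gate on Kit protein can itself set part of the Kit level, and its part in the result was not tested. Flt3 (ENSMUSG00000042817; GRCm38 chromosome 5, 147330741 to 147400489, minus strand), known from multipotent and lymphoid progenitors, had 36.4, 38.1 and 37.6 CPM in WT and 36.6, 37.0 and 37.1 CPM in cKO. The genotypes overlapped, and the 95% interval of its log2 fold change of -0.02 ran from -0.14 to 0.10 (adjusted p 0.815), with a value between -0.04 and 0.05 over 21 alternative settings.

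Epor (ENSMUSG00000006235; GRCm38 chromosome 9, 21958897 to 21963506, minus strand), the receptor for the hormone that drives red cell production, was the called member with the widest spread. It stood at 132, 119 and 72.1 CPM in WT and at 74.3, 32.4 and 47.1 CPM in cKO. WT replicate 3 lay below cKO replicate 1, so the genotypes overlapped. The log2 fold change was -1.07 (SE 0.325, 95% interval -1.84 to -0.31, adjusted p 0.0376), or 47.5% of WT. The call was lost when WT replicate 1 (-0.90, adjusted p 0.118), WT replicate 2 (-1.0, 0.111), cKO replicate 2 (-0.81, 0.0614) or cKO replicate 3 (-1.02, 0.124) was left out, and the value stayed between -1.43 and -0.61 over 21 settings. The 2 low libraries, WT replicate 3 and cKO replicate 2, are those in which GC-rich genes as a whole were low. After the GC offset Epor stood at 100, 96.4 and 79.5 CPM in WT and at 66.2, 46.4 and 54.1 CPM in cKO, with no overlap. The change was then smaller and its interval narrower, with a log2 fold change of -0.72 (95% interval -1.02 to -0.43, adjusted p 0.00185). It was called with each replicate left out in turn under the offset (-0.87 to -0.61, adjusted p 0.000347 to 0.0136). With the offset taken within each genotype it was -1.09. That setting keeps the difference between genotypes, with an adjusted p of 0.000178 by edgeR's quasi-likelihood test. Both offsets remove spread between replicates of a genotype before the test and were treated as known. The adjusted p-values with either offset, also with a replicate left out, can therefore be too small. The size of the fall rests on whether the part of the genotype difference that follows GC content is counted in it.

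The 16 erythroid markers, which include Tfrc, the transferrin receptor, summed to 3610 to 3660 CPM in WT and 2530 to 2570 CPM in cKO. Of these, 8 fell and 4 rose, beside 15.8% of all genes lower and 20.7% higher. The erythroid regulators Klf1 (log2 fold change -1.16) and Gata1 (-0.35, lost without WT replicate 1, WT replicate 2, cKO replicate 2 or cKO replicate 3) fell, while the adult beta-globin gene Hbb-bt (1.66) and the heme synthesis gene Alas2 (1.01) rose. With the GC offset 8 again fell and 4 rose, with Klf1 at -0.72 and Gata1 at -0.21. None of the 16 was at 0. Their part in the Epor value was not tested.

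Csf3r (ENSMUSG00000028859; GRCm38 chromosome 4, 126024550 to 126044440, plus strand), the receptor that supports neutrophil production, was the clearest increase. It stood at 29.4, 27.8 and 30.6 CPM in WT and at 50, 45.5 and 48.0 CPM in cKO. All cKO libraries were above all WT libraries by a wide margin. The log2 fold change was 0.71 (SE 0.065, 95% interval 0.56 to 0.86, adjusted p 0.000193), a 1.63-fold level, and 0.81 with the GC offset (adjusted p 3.97e-05). It ranged from 0.67 to 0.89 over 21 settings, each of which kept the call. In the same libraries the 18 granulocyte and monocyte progenitor markers summed to 799 to 1070 CPM in WT and 406 to 650 CPM in cKO. Of the 18, 13 fell, beside 15.8% of all genes lower. Among the 13 were Mpo, the myeloperoxidase of primary granules (-0.81), and Elane, neutrophil elastase (-2.18). Mpo lost the call without WT replicate 1, WT replicate 2 or cKO replicate 3. With the GC offset 13 were called lower and 1 higher, with Mpo at -0.62 and Elane at -1.92. None of the 18 was at 0, and their part in the Csf3r value was not tested.

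Of the chains for GM-CSF and interleukin-3, Csf2rb passed the test and the binding chains Csf2ra and Il3ra did not. Csf2rb (ENSMUSG00000071713; GRCm38 chromosome 15, 78325752 to 78353847, plus strand), the signalling chain, had 43.4, 41.0 and 40.7 CPM in WT and 52.9, 51.1 and 47.5 CPM in cKO. No cKO library reached down to a WT library, and the log2 fold change was 0.28 (SE 0.0608, 95% interval 0.13 to 0.42, adjusted p 0.0111). Without WT replicate 2 it was 0.26 with an adjusted p of 0.0531, and with the GC offset 0.37 with an adjusted p of 0.00142. Its near-identical mouse paralog Csf2rb2, which serves interleukin-3 alone, had 3.43 to 4.04 CPM in WT and 4.22 to 4.40 CPM in cKO (log2 fold change 0.21, adjusted p 0.19). How reads that fit both paralogs were counted is not given in the sources used here, so both values are uncertain.

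Csf2ra (ENSMUSG00000059326; GRCm38 chromosome 19, 61223957 to 61228429, minus strand), the ligand-binding chain for GM-CSF, was counted at low depth, with 86 to 125 counts per WT library and 90 to 96 per cKO library. It stood at 5.61, 5.84 and 3.99 CPM in WT and at 3.96, 3.65 and 4.35 CPM in cKO. The genotypes overlapped through WT replicate 3, and the log2 fold change of -0.37 (95% interval -0.76 to 0.03) had an adjusted p of 0.128. Without WT replicate 3 it was -0.53 with an adjusted p of 0.0227, whereas with the GC offset it was -0.07 with an adjusted p of 0.718. Il3ra (ENSMUSG00000068758; GRCm38 chromosome 14, 14346275 to 14356011, plus strand), the ligand-binding chain for interleukin-3, was lower still, at 2.15, 2.92 and 1.07 CPM in WT and 2.96, 0.608 and 1.22 CPM in cKO, or 15 to 68 counts per library. The genotypes overlapped widely, and the interval of the log2 fold change of -0.36 ran from -1.69 to 0.97 (adjusted p 0.651). The interval spans changes in both directions, so a difference in Il3ra was not detectable with this spread. Its order over libraries within each genotype was that of GC-rich genes as a whole, apart from WT replicates 1 and 2.

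Il6st and Il1rl1 did not pass the test. Il6st (ENSMUSG00000021756; GRCm38 chromosome 13, 112464070 to 112510086, plus strand) had 18.8, 19.8 and 21.7 CPM in WT and 18.2, 22.8 and 19.9 CPM in cKO. These overlapped, with a log2 fold change of 0.02 (95% interval -0.23 to 0.26, adjusted p 0.916) whose sign changed when WT replicate 1 (-0.03) or cKO replicate 2 (-0.06) was left out. Il1rl1 (ENSMUSG00000026069; GRCm38 chromosome 1, 40429570 to 40465415, plus strand) had 27.9, 28.3 and 30.4 CPM in WT and 30.6, 31.9 and 30.5 CPM in cKO. The lowest cKO library was barely above the highest WT library, and the log2 fold change was 0.10 (95% interval -0.04 to 0.25, adjusted p 0.232). The 15 mast cell, basophil and eosinophil markers found in the mouse summed to 134 to 156 CPM in WT and 169 to 215 CPM in cKO. Of the 9 tested, 2 were higher and 1 lower, beside 20.7% of all genes higher and 15.8% lower. The mast cell protease genes Mcpt1 and Tpsab1 were at 0 in every library. The part of such cells in the Il1rl1 and Kit levels was not tested.

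**Figure D2:**
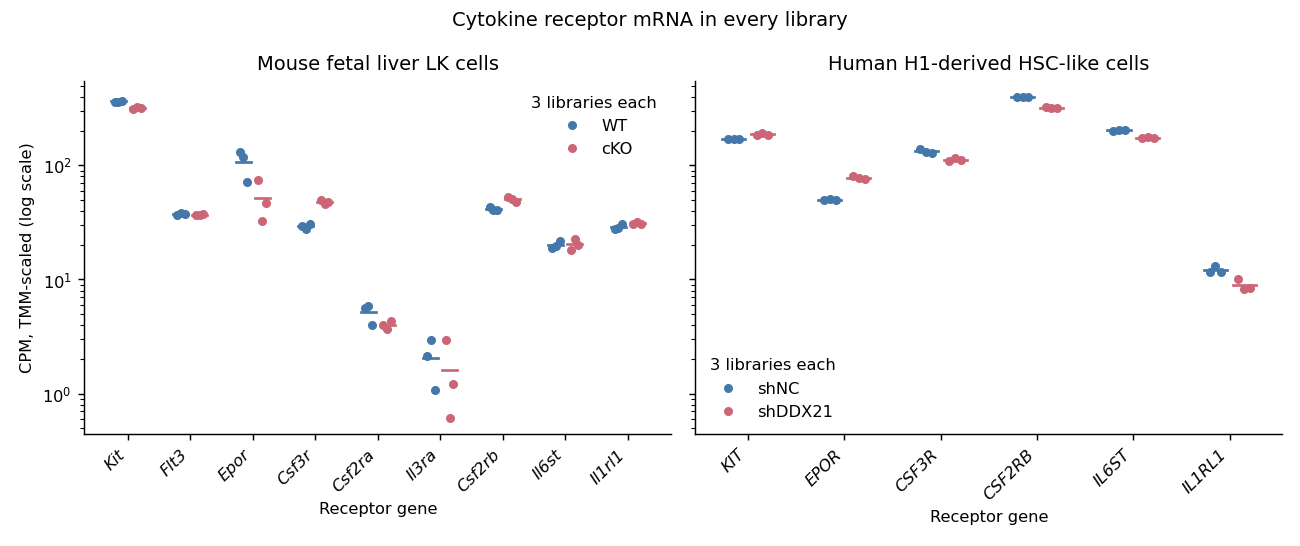
Receptor mRNA in every library (CPM after TMM scaling, log axis), with 9 genes in mouse LK cells on the left and 6 genes in human H1-derived cells on the right. Points are the 3 libraries of a group and bars their mean. Mouse Epor and Il3ra scatter widely (Epor 72.1 to 132 CPM in WT), whereas the human libraries of a group lie close together.

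**Figure D3:**
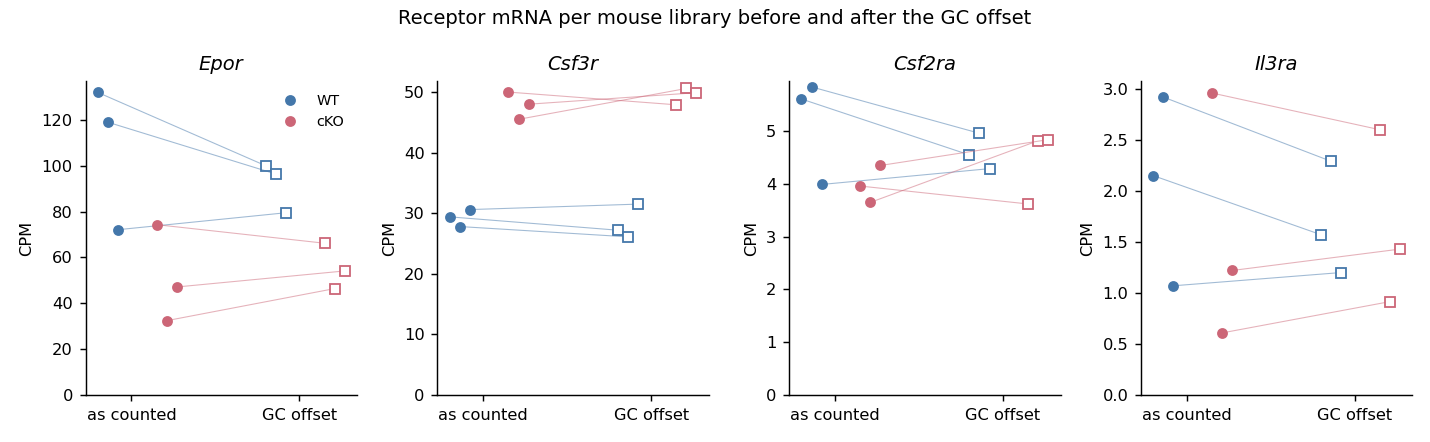
CPM of Epor, Csf3r, Csf2ra and Il3ra in each mouse library as counted (filled circles) and after the GC offset (open squares), with lines joining the same library. Epor separates into 79.5 to 100 CPM in WT and 46.4 to 66.2 CPM in cKO after the offset, Csf3r is separate on both sides, and Csf2ra and Il3ra overlap on both sides.

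In human cells 2 days after transduction with the DDX21 hairpin, all 6 receptors measured differed from the control. EPOR and KIT rose, and CSF3R, CSF2RB, IL6ST and IL1RL1 fell. All 6 passed the filter on low counts. The 6 of 6 calls (2 higher, 4 lower) stand beside 52.7% of 20188 genes called, 25.3% higher and 27.4% lower. These shares also cover genes without a symbol, among which no member could be found. With at least 10 counts required in every library, 10151 of 17358 genes were called. The groups did not overlap for any of the 6, beside 57.4% of all genes. The median log2 fold change of the 6 was -0.23, and that of all genes 0.01. Replicates here were close to each other, and a log2 fold change as small as 0.13 passed the test. Over 13 alternative settings, none of the 6 changed its call or its sign.

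EPOR (ENSG00000187266; hg38 chromosome 19, 11377207 to 11384342, minus strand) was the largest of these changes. It stood at 49.5, 51.2 and 49.5 CPM in shNC and at 80.7, 77.6 and 75.8 CPM in shDDX21. Every shDDX21 library was above every control library, by far more than the spread within either group. The log2 fold change was 0.64 (SE 0.0433, 95% interval 0.56 to 0.73, adjusted p 8.99e-22, edgeR's quasi-likelihood test), a 1.56-fold level. The 15 human erythroid markers with a symbol summed to 2140 to 2160 CPM in shNC and 1780 to 1810 CPM in shDDX21. TFRC alone went from 1130 to 656 CPM, while 8 of 15 rose and 3 fell, beside 25.3% of all genes higher and 27.4% lower. GATA1 (0.37) and ALAS2 (0.57) were among those that rose. None of the 15 was at 0, and their part in the EPOR value was not tested.

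KIT (ENSG00000157404; hg38 chromosome 4, 54657267 to 54740783, plus strand) stood at 169, 170 and 171 CPM in shNC and at 185, 191 and 183 CPM in shDDX21. The groups were separate, with a log2 fold change of 0.13 (SE 0.0285, 95% interval 0.07 to 0.19, adjusted p 6.53e-05). KIT was not part of the human sort. On the TPM scale, which divides by gene length and by the sum over all genes, the rise was absent, with 56.0 to 57.1 TPM in shNC and 54.6 to 56.5 TPM in shDDX21. The direction of this small change thus depended on the scale.

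CSF2RB (ENSG00000100368; hg38 chromosome 22, 36913628 to 36940439, plus strand), the shared chain, had 393, 396 and 395 CPM in shNC and 322, 315 and 320 CPM in shDDX21. The groups were far apart relative to their spread, and the log2 fold change was -0.31 (SE 0.0234, 95% interval -0.35 to -0.26, adjusted p 4.06e-19). CSF3R (ENSG00000119535; hg38 chromosome 1, 36466043 to 36483278, minus strand) had 138, 131 and 129 CPM in shNC and 110, 115 and 111 CPM in shDDX21. It was lower in every shDDX21 library, with a log2 fold change of -0.25 (95% interval -0.31 to -0.18, adjusted p 1.41e-09). The 14 human granulocyte and monocyte progenitor markers summed to 815 to 830 CPM in shNC and 594 to 601 CPM in shDDX21. Of the 14, 12 fell, beside 27.4% of all genes lower. The member of that list that rose was CSF1R (0.22), the receptor for macrophage colony-stimulating factor. No marker was at 0, and the part of such cells in CSF2RB and CSF3R was not tested.

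IL6ST (ENSG00000134352; hg38 chromosome 5, 55935095 to 55995022, minus strand) had 201, 205 and 203 CPM in shNC and 175, 177 and 173 CPM in shDDX21. The libraries of each group lay close together and the groups apart, and the log2 fold change was -0.22 (95% interval -0.27 to -0.16, adjusted p 3.75e-10). IL1RL1 (ENSG00000115602; hg38 chromosome 2, 102311502 to 102352037, plus strand), the least abundant, had 11.6, 13.2 and 11.7 CPM in shNC and 10.0, 8.18 and 8.48 CPM in shDDX21. The groups did not overlap, with a log2 fold change of -0.44 (SE 0.104, 95% interval -0.65 to -0.23, adjusted p 0.000209). The 10 mast cell, basophil and eosinophil markers with a human symbol summed to 865 to 881 CPM in shNC and 658 to 670 CPM in shDDX21. Of these, 5 fell and 1 rose, beside 27.4% of all genes lower and 25.3% higher, and GATA2 alone went from 435 to 200 CPM. The tryptase gene TPSB2 was at 1.31 CPM or less on average in both groups, and the part of such cells in IL1RL1 was not tested.

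CSF2RA and IL3RA are known to lie in the pseudoautosomal region, the stretch shared by the X and Y chromosomes. In the human counts the first 49 genes of chromosome X, from 253743 to 2741309 (hg38), were at 0 in all 6 libraries. The first gene with any count began at 2752040. On chromosome Y, 48 of 49 genes that begin before 2700000 were at 0 too. No level for genes of this region can be read from these counts.

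The receptors called in both experiments changed in opposite directions on the CPM scale. Species, cell source, stage and the means of lowering DDX21 differ at once, so these cannot be told apart. Whether the 2 log2 fold changes of a gene differ was tested by an interaction term over all 12 libraries in edgeR's quasi-likelihood fit. It passed for 5 of 6 members, beside 56.2% of 10313 genes matched by symbol and tested in both. The difference, mouse minus human, was -1.71 for EPOR (SE 0.369, adjusted p 0.00202), 0.95 for CSF3R (SE 0.0677, adjusted p 3.41e-07) and 0.58 for CSF2RB (SE 0.0552, adjusted p 3.55e-06). It was 0.55 for IL1RL1 (adjusted p 0.00176) and -0.32 for KIT (adjusted p 1.96e-05). This fit pooled the spread of both experiments for each gene, although the coefficient of variation was 10.5% in the mouse and 2.23% in human cells. The SE of a difference can thus fall below that of the mouse alone, as for CSF2RB (0.0552 against 0.0608). The p-values of the interaction can therefore be too small. IL6ST differed by 0.23 (SE 0.0962, adjusted p 0.0574), and passed under 6 of 17 alternatives, among them the GC offset (adjusted p 0.022). For EPOR the difference stayed between -2.07 and -1.36 over these alternatives, with adjusted p-values up to 0.00682. Of the members called in both experiments, 4 of 4 had opposite signs (EPOR, KIT, CSF3R and CSF2RB), beside 43.3% of 3061 genes called in both. By mean TPM it was 3 of 4, since KIT was lower in both experiments on that scale (151 to 140 TPM in the mouse and 56.5 to 55.4 TPM in human cells).

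**Figure D4:**
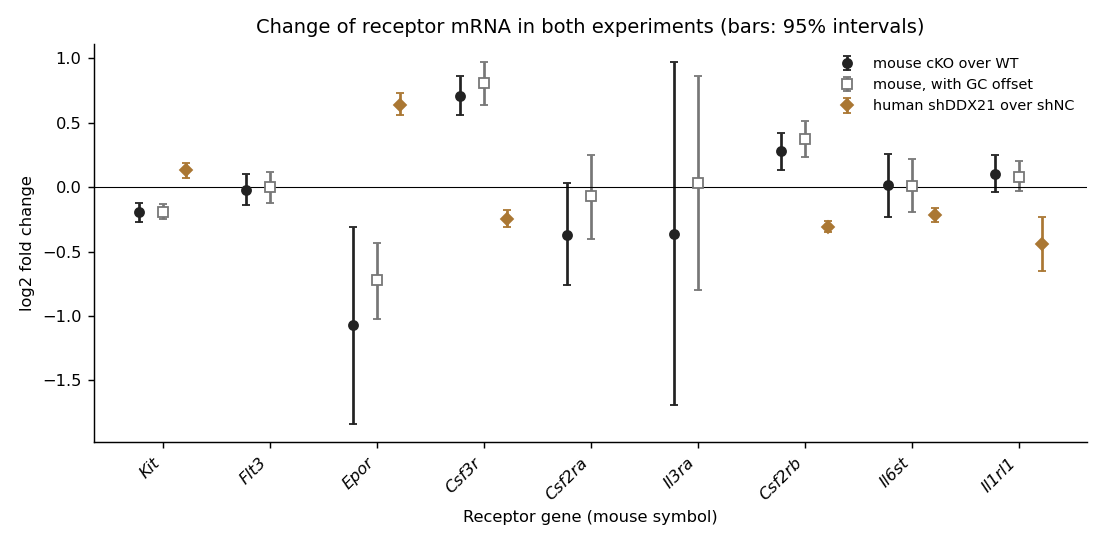
Log2 fold change of the 9 receptor genes with 95% intervals, for mouse cKO over WT without (circles) and with the GC offset (squares) and for human shDDX21 over shNC (diamonds, 6 genes). EPOR and KIT lie below 0 in the mouse and above 0 in human cells, and CSF3R and CSF2RB the reverse, although KIT in human cells is not higher on the TPM scale. The mouse interval of Epor runs from -1.84 to -0.31 without the offset and from -1.02 to -0.43 with it.

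Levels per length were compared as TPM, computed here from the counts and the gene lengths in the files. In WT the order was Epor (200 ± 54.4), Kit (151 ± 6.07), Csf3r (30.1 ± 2.04), Flt3 (22.4 ± 0.956), Csf2rb (21.2 ± 0.429), Il1rl1 (15.5 ± 1.12), Il6st (6.71 ± 0.67), Csf2ra (6.62 ± 1.16) and Il3ra (2.54 ± 1.13), in TPM with the SD of 3 libraries. The ranges of Epor and Kit overlapped, as did those of Flt3 and Csf2rb and of Il6st and Csf2ra. The ratio of Epor to Kit was 1.65, 1.48 and 0.873 in WT replicates 1 to 3, against 1.07, 0.450 and 0.668 in cKO. In cKO, Kit (140 ± 5.38 TPM) came before Epor (101 ± 39.4 TPM), again with overlapping ranges, and Csf3r followed at 52.0 ± 1.37 TPM. The order below them was Csf2rb, Flt3, Il1rl1, Il6st, Csf2ra and Il3ra, from 27.2 to 2.09 TPM, with no overlap between neighbours.

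By TPM the receptors measured in human cells had another order, led by the shared chain. That order rests on the exon length listed for each gene, which for CSF3R was 10594 bases in human and 3609 in mouse. By CPM, CSF3R stood above EPOR in shNC (133 against 50.1). CSF2RB stood at 297 ± 1.69 TPM in shNC (SD, n = 3), followed by IL6ST at 63.2, EPOR at 61.2, KIT at 56.5, CSF3R at 47.0 and IL1RL1 at 7.95 TPM. In shDDX21, CSF2RB stood at 215 ± 2.88 TPM, EPOR at 85.3 and KIT at 55.4 TPM, with IL6ST (48.8), CSF3R (35.6) and IL1RL1 (5.21 TPM) below. No neighbouring ranges overlapped in either group. EPOR stood below IL6ST in shNC and above it in shDDX21, and its ratio to KIT was 1.06 to 1.11 in shNC and 1.5 to 1.6 in shDDX21.

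The other genes of the pathway were taken from lists of known parts. Their counts stand beside 20.7% of all genes higher and 15.8% lower in the mouse, and 25.3% higher and 27.4% lower in human cells, and no list was tested against other genes. The human shares also cover genes without a symbol, which no list could hold. Among 32 other cytokine receptors tested in the mouse, 11 rose and 7 fell, with a median log2 fold change of 0.10. Csf1r, the receptor for macrophage colony-stimulating factor and itself a monocyte marker, fell from 30.5 to 7.20 CPM (-2.08, adjusted p 6.56e-06). Il21r rose from 6.99 to 17.9 CPM (1.35, adjusted p 0.000194). In human cells 16 of 29 fell and 3 rose, among them CSF1R, with a median of -0.31. The lymphoid receptor IL7R fell from 29.3 to 5.84 CPM (-2.32), IL1RAP, the partner chain of IL1RL1, from 18.1 to 6.02 CPM (-1.58), and IL4R from 48.0 to 22.2 CPM (-1.12). The 6 human lymphoid markers with a symbol, IL7R among them, summed to 43.8 to 48.0 CPM in shNC and 17.3 to 20.2 CPM in shDDX21, and their part in these values was not tested.

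Few ligands were measured. In the mouse 7 were tested and 2 rose, Il6 and Lif, which were named after their values were seen. Lif, a ligand that acts through IL6ST, had 0, 3 and 0 counts in WT, against 232, 220 and 202 counts in cKO. It was nearly undetected in every WT library, and passed the filter on low counts through the cKO libraries. Its call held under every setting that gave a value, but that outcome was largely fixed by this. These counts are therefore a description. Il6 had 8 to 10 counts in WT and 21 to 40 in cKO. In human cells 4 of 9 ligands fell (LIF, CSF2, IL11 and KITLG) and 1 rose (CTF1), also named after their values were seen. LIF fell from 6.40 to 3.14 CPM (log2 fold change -1.02, adjusted p 7.36e-08), and CSF2, which encodes GM-CSF, had 27 to 54 counts per library in shNC and 1 to 7 in shDDX21. KITLG lost its call under 7 of 13 settings. The mouse count was 0 when at least 10 counts were required in every library, and 3 to 5 with the GC offset and 1 library left out. The human count of lower ligands was 2 when at least 10 counts were required.

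Of 11 JAK and STAT genes in the mouse, 5 rose, among them Stat4 and Jak1, and 3 fell (Stat5b, Stat5a and Jak2). Stat4 rose from 4.93 to 11.3 CPM (1.20, adjusted p 0.000322). Stat5b and Stat5a, the factors through which EPOR signals, had log2 fold changes of -0.46 (adjusted p 0.0318) and -0.35 (adjusted p 0.0366). Both lost the call without WT replicate 1, WT replicate 2 or cKO replicate 3, Stat5b also without cKO replicate 2, and Stat5a also with the GC offset (-0.07, adjusted p 0.43). The count of higher genes in this list was 2 without WT replicate 2 and with DESeq2, and 3 without WT replicate 3, without cKO replicate 3 and with no filter. The count of lower genes was 1 without WT replicate 1, WT replicate 2 or cKO replicate 3. In human cells 5 of 10 rose and 4 fell, or 2 with upper-quartile scaling. STAT2, known from interferon signalling, rose from 128 to 185 CPM (0.53), while STAT3, the factor downstream of IL6ST, fell from 391 to 206 CPM (-0.93).

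Of 25 inhibitors of these receptors tested in the mouse, 11 rose and 2 fell (median 0.15). Cish, a feedback inhibitor of EPOR and STAT5 signalling, rose from 4.77 to 22.4 CPM (2.23, adjusted p 1.26e-05). Dusp6, a phosphatase of ERK, rose from 4.30 to 15.9 CPM (1.88), and Socs5 from 13.6 to 26.2 CPM (0.95). The 2 that fell were Pias4 and Socs6, named after their values were seen, and both lost the call without WT replicate 1, WT replicate 2 or cKO replicate 3. The higher count was 7 with DESeq2, without WT replicate 3 or without cKO replicate 3, and 14 to 15 with the GC offset and 1 library left out. In human cells 6 of 26 rose and 9 fell, with SPRY1 (0.78) the named rise and SOCS3 (-1.45), which restrains IL6ST, and IRAK3 (-0.93) the named falls.

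Among 38 adaptors and kinases in the mouse, 10 rose and 7 fell, or 11 with the GC offset taken within genotypes. The phospholipase gene Plcg1 rose from 43.9 to 92.5 CPM (1.08) and the kinase gene Lyn from 64.2 to 112 CPM (0.80), while Pik3r2, a regulatory subunit of PI3-kinase, fell from 43.1 to 20.8 CPM (-1.05, and -0.59 with the GC offset). In human cells 11 of 37 rose and 14 fell. NRAS, a small GTPase downstream of these receptors, was among those that fell (-0.76).

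Genes known to be induced through STAT factors rose in 10 of 16 cases in the mouse and fell in 1, with a median of 0.43. Cish is in this list too. The cyclin gene Ccnd1 rose from 19.7 to 61.9 CPM (1.65) and Ccnd2 from 362 to 804 CPM (1.15), and Tfrc was the gene that fell (-0.81). The higher count was 6 without WT replicate 2 or without cKO replicate 3. The lower count was 2 with DESeq2, no filter, a replicate block or the GC offset, and without WT replicate 3 or cKO replicate 1, and 3 with the GC offset taken within genotypes. In human cells 7 of 14 fell, among them ID1 (-1.47), SOCS3 (-1.45) and MYC (-1.17), and 2 rose (BCL2L1 and CCND3), with a median of -0.18. Beside these, the 15 stem and multipotent progenitor markers tested in the mouse had 12 higher and 1 lower. The 16 such markers found summed to 368 to 381 CPM in WT and 633 to 645 CPM in cKO. Their part in the list counts was not tested.

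For each member called in both experiments, the 2 genes with the nearest pair of log2 fold changes were taken from the 3061 called in both. For EPOR these were LIPH (-1.02 in the mouse, 0.76 in human cells) and ABTB2 (-1.02 and 0.77), at distances of 0.129 and 0.141. For CSF3R they were PSTPIP2 (0.73 and -0.22) and KIF1B (0.74 and -0.26). CSF2RB lay within 0.0121 of PHACTR2 (0.28 and -0.30) and SLA (0.27 and -0.32), and KIT within 0.0113 of FBXW2 and GTF3C5. Each of these pairs rests on the same 12 libraries.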

How the data were processed

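Polyadenylated RNA was sequenced in 12 libraries, 3 per group. Reads were aligned with STAR to mm10 or hg38 and counted with featureCounts, and DESeq2 was used, per the submitters' processing notes. Their versions, the annotation and the settings for strand and multiply mapping reads are not given in the sources used here. The raw tables deposited by the authors list integer counts and an exon length for each gene. A further deposited table lists normalized values (signal), which equal the counts over a library constant to within a relative deviation of 4.97e-10, and the authors' log2 of each value over the control mean. These were used for symbols alone. No column of per-sample values was left unused.

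Counts were tested per experiment with edgeR 4.0.16 in R 4.3.3: filterByExpr, TMM factors, glmQLFit and glmQLFTest, two-sided, no covariates, Benjamini-Hochberg adjustment over all genes tested, called under 0.05. With 3 libraries against 3, an exact permutation test cannot give a two-sided p below 0.1. SE is the size of the log2 fold change divided by the root of F, and SD is over 3 libraries. TPM was computed here. Alternatives were DESeq2 1.42.0, other scalings and filters, a replicate block, each library left out, and, added after the data were seen, GC offsets from the longest GENCODE M21 transcript of each gene. Tested on simulated counts, the fit recovered 193 of 200 changed genes in the mouse (13 false calls among 14601 genes) and 200 of 200 in human cells (8 among 19734). How far these figures apply to the receptor calls was not tested. Replicates of a group differed beyond sampling noise, with a chi-square per degree of freedom of 1.96 to 25.1 in the mouse. In human cells it was 1.54 to 1.71. Overlapping exons cover at most 6.60% of any member.

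The members, lists and rules were chosen with earlier results of these data known. All members were named. Of each pathway list, up to 3 genes were named with the largest change among those called, with a mean of at least 5 CPM and no overlap of groups. Some genes that this rule selects are not reported here.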

Additional observations from a re-analysis of the deposited data

Results flagged for a closer look

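In all, 5 of 6 matched receptors changed differently in the 2 experiments by the test of the difference itself, beside 56.2% of 10313 matched genes. Such a difference was thus common among all genes. The test was an interaction over all 12 libraries in edgeR's quasi-likelihood fit with Benjamini-Hochberg adjustment over the 10313 genes. The difference in log2 fold change, mouse minus human, was -1.71 for EPOR, 0.95 for CSF3R, 0.58 for CSF2RB, 0.55 for IL1RL1 and -0.32 for KIT. EPOR, CSF3R, CSF2RB and KIT were called with opposite signs, beside 43.3% of 3061 genes called in both. Il1rl1 was not called in the mouse. The opposite sign of KIT holds on the CPM scale, and by mean TPM KIT was lower in both experiments. The differences kept their sign and their call under 17 alternatives each. All of these fits pooled the spread of the 2 experiments, so their p-values can be too small. EPOR varied most, from -2.07 to -1.36, and was -1.36 with the GC offset on the mouse libraries.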

How the results depend on the processing

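In human cells all 6 calls held under 13 alternatives, and the number of genes called ranged from 8931 (DESeq2) to 10890. In the mouse, 4 receptors were called under most of 21 alternatives, 3 with total-count scaling and 2 to 5 with 1 library left out (2 without WT replicate 2, which ended the calls of Epor and Csf2rb). With the GC offset and 1 library left out it was 4 throughout. The number of mouse genes called, 5443, became 3717 to 5671 with 1 library left out, 6644 with the GC offset and 7137 with that offset taken within genotypes. Both offsets take out spread within genotypes before the test, which by itself can raise the number of calls. Members differing between the experiments numbered 5, or 6 where IL6ST was called. Of 267 single-gene values in the 2 experiments, 243 kept their sign and their side of the threshold, 6 lost the call, 1 gained it and 17 changed sign, all of these in genes that were not called.

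Flt3 was 0.01 with upper-quartile scaling, 0.05 with total counts, 0.00 with the GC offset, and 0.01, 0.02 and 0.03 with that offset without WT replicate 2, WT replicate 3 and cKO replicate 1. Il3ra ranged from -1.16 to 0.06 with 1 library left out (0.06 without cKO replicate 2). It was 0.03 with the GC offset, and under that offset 0.30, 0.29 and 0.15 without WT replicate 2, cKO replicate 2 and cKO replicate 3. Il6st was 0.00 with no filter, -0.03 without WT replicate 1 and -0.06 without cKO replicate 2, the last 2 values also under the offset, and ranged from -0.06 to 0.10 with 1 library left out. Csf2ra was 0.07 with the offset without cKO replicate 1. The cause was not tested. List counts changed by over 1.5 times in 48 of 408 cases.

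Deviations of same-numbered libraries had correlations of 0.316, -0.177 and 0.0131 in the mouse and -0.0138, -0.00238 and -0.000862 in human cells. In the mouse, WT replicate 3 and cKO replicate 2 reached 0.408, and deviations there follow GC content. These values therefore cannot show whether the numbers pair the libraries. With a replicate block, 5166 mouse and 10601 human genes and 4 and 6 receptors were called, and 6 differed between experiments. Il3ra and Csf2ra had the lowest depth of the members (15 to 125 counts per library), and its part in their spread was not tested. No GC correction could be made for the human libraries with the references used here.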
